A study of Mus musculus with 15 samples.

Results

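The AP-1 Fos and Jun family was followed through fear extinction in the mouse hippocampus. Members were chosen by gene name on the array: Fos, Fosb, Fosl1, Fosl2, Jun, Junb, Jund (also under its older name Jund1) and Atf3. Of the 9 names looked for, 8 were found; no probe carried the name Jund, and Jund1 is the same gene. The 8 genes had 10 probes among 38457 probes and 26117 genes tested. Junb and Fosl2 had 2 probes each, and all 10 probes matched their gene in RefSeq by accession. Each of the 10 lay well above background on all 15 arrays, so no member was lost to the filter on dim probes. The exon or UTR in which each probe lies was not analysed here.

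The mice were male C57BL/6J, an inbred strain, and their hippocampal RNA filled 5 arrays in each of 3 groups. The labels name no transgene, drug or age. In contextual fear conditioning a mouse receives a foot shock in a box and later freezes when returned to it. E1 mice were conditioned and sampled 1 h after their first return without shock (extinction trial 1). ELF mice were conditioned and sampled 1 h after trial 5 of a series spaced 24 h apart, the trial at which freezing had declined. Control mice were placed in the box without conditioning, per the design text, although their sample names call them naive. The labels call the samples of a group biological replicates. With 3 groups, E1 against control asks how conditioned animals after the first trial differ from unconditioned ones. ELF against control asks what is present when freezing is low, and ELF against E1 how the 2 trials differ. In both comparisons with control, the earlier conditioning cannot be told apart from the trial itself. For control mice the sample labels give no time between the box and sampling. ELF mice had also lived 4 further days and trials beyond E1 mice, which cannot be told apart from the decline in freezing.

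AP-1 is a family of transcription factors that act as pairs joined by a leucine zipper. Fos proteins pair mainly with Jun proteins, while Jun proteins also pair with one another, and the pairs bind the TPA response element or, with ATF and CREB family partners, the cyclic AMP response element. Fos, Fosb and Junb are immediate early genes: neuronal activity raises their transcription within minutes, without new protein synthesis, through factors such as CREB and SRF that are already present. Fos messenger RNA and protein are widely used in the hippocampus to mark recently active neurons, and Jund is the member most constantly present. Atf3 is a bZIP factor of the ATF family that pairs with Jun proteins and is best known as a response to injury and stress.

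The promoters of 4 members are shown as background. Any part of these sequences in how the genes move together or apart was not tested. Each is the 250 bases before the gene's start in RefSeq (GRCm38.p6), read in the gene's own direction. Capitals mark matches to the core of the cyclic AMP response element, to its longer form and to a TATA box.
Fos, chr12:85473640-85473889, plus strand: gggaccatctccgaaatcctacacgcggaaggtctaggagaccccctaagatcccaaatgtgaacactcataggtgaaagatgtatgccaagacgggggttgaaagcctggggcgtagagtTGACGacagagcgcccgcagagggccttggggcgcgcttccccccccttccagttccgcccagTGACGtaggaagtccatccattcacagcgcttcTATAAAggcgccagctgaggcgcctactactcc
Junb, chr8:84978749-84978998, minus strand: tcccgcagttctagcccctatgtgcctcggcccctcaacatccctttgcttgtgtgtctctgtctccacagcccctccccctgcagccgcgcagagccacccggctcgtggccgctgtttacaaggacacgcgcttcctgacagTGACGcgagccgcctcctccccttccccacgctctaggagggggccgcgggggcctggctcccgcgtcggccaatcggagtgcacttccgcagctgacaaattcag
Fosb, chr7:19310046-19310295, minus strand: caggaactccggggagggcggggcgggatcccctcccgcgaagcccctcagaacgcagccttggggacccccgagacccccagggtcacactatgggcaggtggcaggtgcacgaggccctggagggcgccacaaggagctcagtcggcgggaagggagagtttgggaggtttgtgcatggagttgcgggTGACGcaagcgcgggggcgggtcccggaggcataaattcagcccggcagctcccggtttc
Jun, chr4:95052223-95052472, minus strand: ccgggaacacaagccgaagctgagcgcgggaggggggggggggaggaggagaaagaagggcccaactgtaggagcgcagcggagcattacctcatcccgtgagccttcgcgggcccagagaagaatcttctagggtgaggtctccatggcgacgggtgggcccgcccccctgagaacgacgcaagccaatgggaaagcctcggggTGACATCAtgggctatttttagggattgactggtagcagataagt

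RefSeq promoters were found for 7 of the 8 members, all but Fosl1, and 5 motifs were searched on both strands. The first was TGACG, the core of the cyclic AMP response element. It was present in 4 of 7 (Fos, Fosb, Junb and Atf3), against 17.8% of 32851 mouse promoters of the same length. Fos held it at 129 to 125 and at 66 to 62 bases before the start, Fosb at 60 to 56 and Junb at 106 to 102. In Atf3 it lay on the other strand at 7 to 3 bases. The Jun promoter held TGACATCA, at 45 to 38 bases, a match to the longer form TGACNTCA. No other member held that form, which 7.49% of all promoters have; it overlaps the core where its N is G. The TATA box letters TATAAA were found in Fos, at 33 to 28 bases, against 12.4% of all promoters. The TPA response element TGANTCA (6.75% of promoters) and the CArG box, the site of SRF (1.47%), had no match in these 7 windows. Sequence further than 250 bases before the start was not searched, so sites there would be missed. A match is a run of letters, and no binding was measured.

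Levels below are log2 intensities relative to each array's 75th percentile, so that a value of 0 is the brightness that 75% of the array's probes do not reach; levels of different probes are not compared. Differences are on the same log2 scale with their standard error (SE), from limma over all 15 arrays, with p-values adjusted by Benjamini-Hochberg over all 26117 genes and called at 0.05. The arrays lay on 4 slides. Control 1 to 4 were on slide 1, and control 5 was on slide 2 with E1 1 to 3. E1 4 and 5 shared slide 3 with ELF 3 and 4, while ELF 1, 2 and 5 were on slide 4. The share of spots well above background was 95.8 to 97.2% on slide 4 and 83.5 to 93.1% on slide 3. All 11 hippocampal neuron markers were well above background on every array.

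At 1 h after the first extinction trial Fos and Junb were higher than in controls, and the other 6 members were not called. Called members were thus 2 of 8, where 0.188% of all genes were called in either direction. The groups did not overlap for Fos, Junb and Atf3, all higher in E1, a count of 3 of 8 against 2.11% of all genes. An unadjusted p under 0.05 was reached by 4 of 8 (these and Jun), beside 13.1% of all genes. Of the 8 differences, 7 were positive, with a median of 0.16 against 0.04 over all genes. Under other scalings Fosl1 was below 0 (-0.054 with quantile normalization, -0.042 after normexp and -0.0074 in the deposited table), as did Fosb after normexp (-0.054).

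**Figure D1:**
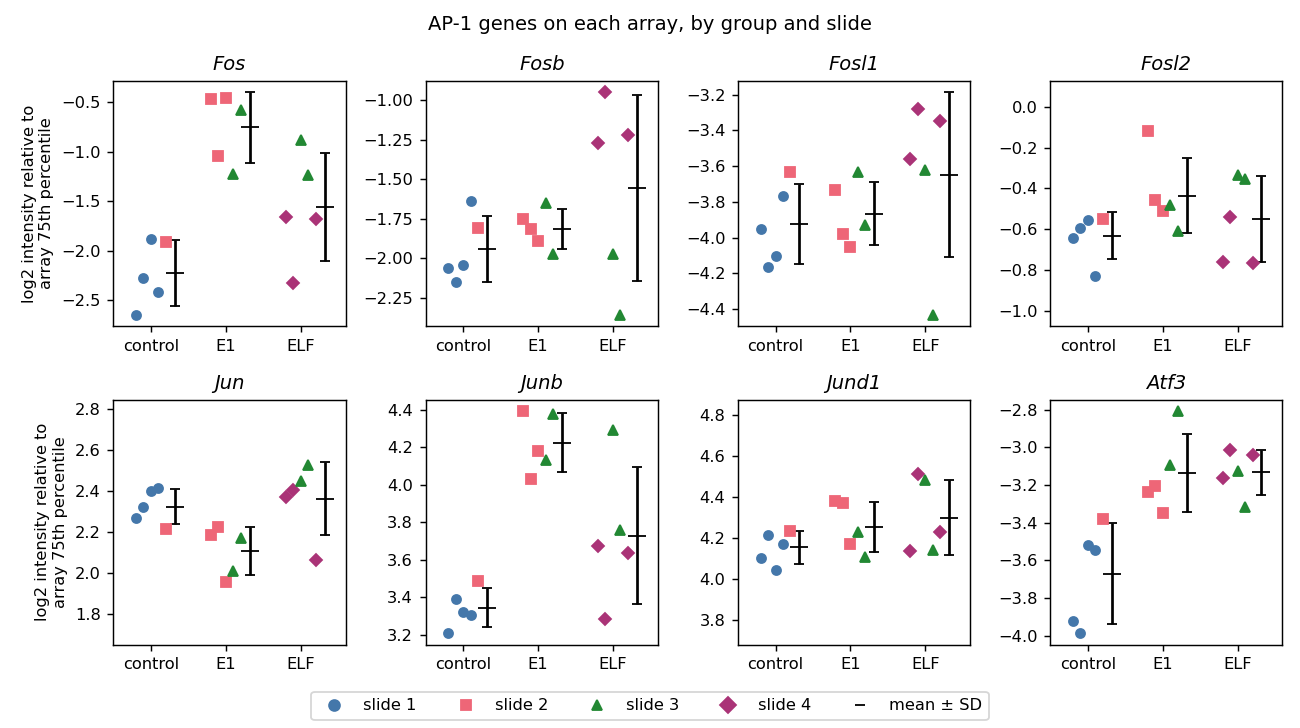
Log2 intensity of each AP-1 gene on each of the 15 arrays (points; shape and colour give the slide), with the mean ± SD of each group of 5 beside them; the vertical scales differ between genes. Fos and Junb lie above all controls on every E1 array, and the ELF arrays of slides 3 and 4 stand apart for Fos, Fosb, Fosl1, Fosl2, Jun and Junb.

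Fos encodes the founding member of the family and is the gene with the largest difference among the members. Its probe (A_52_P262219) lies at chr12:83478431-83478490 on the plus strand in the array's mm7 annotation. Control arrays read -2.65, -2.27, -1.88, -2.42 and -1.91. E1 arrays read -0.47, -1.05, -0.46, -1.22 and -0.57. ELF arrays read -1.66, -2.33, -0.88, -1.24 and -1.68. Every E1 array was above every control array, and the ELF arrays spanned from the control range into the E1 range. Fos was 1.47 higher in E1 than in control (SE 0.25; limma adjusted p = 0.0351), a 2.78-fold difference (95% interval 1.91 to 4.03; n = 5 and 5). In ELF the level was 0.67 above control (adjusted p = 0.139) and its difference from E1 was -0.80 (unadjusted p = 0.0063; adjusted p = 0.371), so neither neighbour in the order E1, ELF, control passed the threshold against ELF.

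The array carries the Fos probe in 10 spots, which repeat the hybridisation and not the animal. The SD between those spots on one array had a median of 0.095 (range 0.055 to 0.342). Arrays of a group differed by more: their SD was 0.33 among controls, 0.36 among E1 and 0.54 among ELF arrays, which exceeded the median spot SD in each group. Read one spot at a time, E1 minus control ran from 1.40 to 1.56 and ELF minus control from 0.48 to 0.78.

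**Figure D2:**
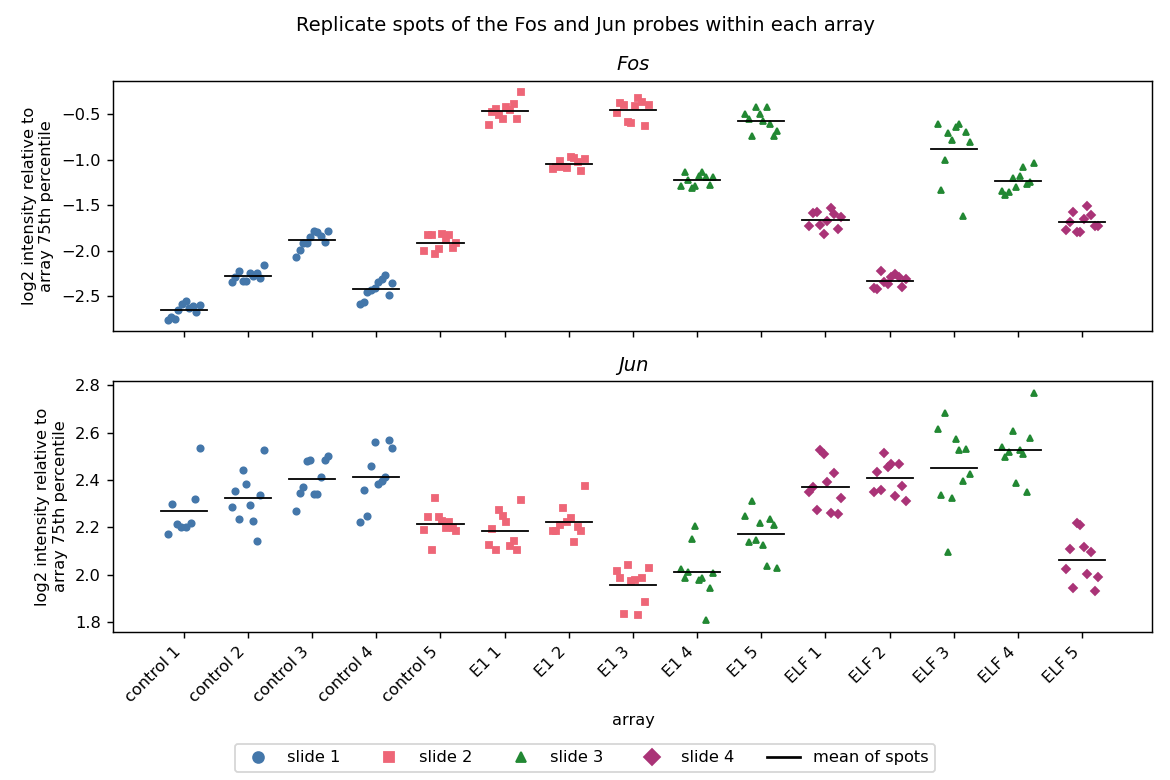
Log2 intensity of the 10 spots of the Fos probe and of the Jun probe on each array (points; shape and colour give the slide), with the mean of the spots as a line. For Fos the lowest E1 spot (-1.32) lies above the highest control spot (-1.78), whereas the Jun spots of E1 (1.81 to 2.38) and control (2.10 to 2.57) overlap.

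Junb, a Jun protein that is itself an immediate early gene, moved with Fos. On its brighter probe (A_51_P159201, chr8:83563097-83563156, minus strand, mm7) control arrays read 3.21, 3.39, 3.32, 3.30 and 3.49. E1 arrays read 4.40, 4.03, 4.18, 4.13 and 4.38. ELF arrays read 3.67, 3.28, 4.29, 3.76 and 3.63. E1 and control were separated by a gap, and ELF arrays lay in it, below it or within E1. The E1 level was 0.88 above control (SE 0.15; limma adjusted p = 0.0351), which is 1.84-fold (95% interval 1.48 to 2.30). ELF was 0.39 above control (adjusted p = 0.146) and differed from E1 by -0.50 (unadjusted p = 0.0047; adjusted p = 0.351), again between the other groups and passing against neither.

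The dimmer Junb probe (A_51_P159194) lies beside the first on the genome and shares 22 bases with it, so the readings are not of separate stretches.
Junb shared bases: ttcgtgtctaaagtctatttta
On this probe control arrays read 2.79, 2.88, 2.85, 2.37 and 2.65 and E1 arrays 3.86, 3.54, 3.58, 3.08 and 3.46, with no overlap. E1 minus control was 0.80 (SE 0.20; adjusted p = 0.106 with every probe as its own row), so the direction was the same and this probe alone was not called. ELF arrays read 3.02, 2.78, 3.79, 3.53 and 2.75, a mean 0.47 above control (adjusted p = 0.185). Over the 15 arrays the 2 Junb probes correlated at r = 0.86, and at 0.69 once group means were removed.

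Both calls in E1 depended on which array was left out and on whether slide or replicate number entered the fit. A fit of the 10 E1 and control arrays kept both (adjusted p = 0.0230 and 0.0065, with 0.126% of genes called). Leaving out E1 2 or control 5 kept both calls, in fits that called 41 and 1119 of 26117 genes. Leaving out E1 1, 3, 4 or 5 or control 1, 2, 3 or 4 ended both, in fits that called 8 to 22 genes. There the highest limma adjusted p was 0.112 for Fos and 0.123 for Junb, and the highest unadjusted p 1.7e-04 and 1.5e-04. Leaving out any 1 array, the differences ran from 1.37 to 1.59 and from 0.84 to 0.93. With the replicate number as a block the adjusted p was 0.0542 for Fos and 0.0572 for Junb over 15 arrays (0.0345% of genes called), and 0.0131 and 0.0130 over the 10 arrays of the pair (12.2%). On slide 2, which holds both groups (3 E1 arrays, 1 control array), Fos differed by 1.25 and Junb by 0.72. With slide as a fixed block the adjusted p of both was 1.00, in a fit that called 3 genes. The limma unadjusted p there was 0.0053 for Fos and 0.0074 for Junb. With slide as a random block the adjusted p was 0.69 for both (unadjusted 0.00082 and 0.00063), in a fit that called 0 genes.

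Atf3, the stress-responsive ATF member, was the other gene whose E1 and control arrays did not overlap. Its probe (A_52_P452689, chr1:190724174-190724233, minus strand, mm7) was dim. Processed intensities were 115 to 203 in control, 200 to 261 in E1 and 252 to 333 in ELF. The median of 839 olfactory receptor genes, described below, was -4.05 to -3.49 over control arrays. Any part of such low signal in the Atf3 values was not tested. Control arrays read -3.92, -3.99, -3.52, -3.54 and -3.38, E1 arrays -3.23, -3.21, -3.35, -3.09 and -2.80, and ELF arrays -3.16, -3.02, -3.13, -3.32 and -3.04. Every E1 and every ELF array was above every control array, by a small margin over control 5. E1 minus control was 0.53 (SE 0.13; adjusted p = 0.0966) and ELF minus control 0.54 (SE 0.13; adjusted p = 0.0504), both uncalled. E1 and ELF differed by 0.00 (95% interval -0.28 to 0.29). Without control 5, which shares slide 2 with E1, both were called (adjusted p = 0.0202 and 0.0156), in fits that called 4.28% and 8.08% of all genes, whereas the difference within slide 2 was 0.12. With the replicate block the adjusted p in E1 was 0.0861 over 15 arrays and 0.0247 over 10 arrays. ELF minus control was -0.15 when slide entered as a fixed block.

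In the Fos subfamily the remaining 3 genes showed no called difference after the first trial. Fosb encodes both a full-length protein and the stable deltaFosB splice form, which a single probe need not tell apart. Its probe (A_51_P138378, chr7:16985502-16985561, minus strand, mm7) read -2.06, -2.15, -2.04, -1.64 and -1.81 in control, -1.75, -1.82, -1.89, -1.65 and -1.97 in E1, and -1.27, -0.95, -1.97, -2.36 and -1.22 in ELF. E1 lay inside the control range, and ELF held the 3 highest and the lowest reading of the series. The differences were 0.12 for E1 (95% interval -0.35 to 0.59) and 0.38 for ELF (adjusted p = 0.306).

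Fosl1, known as Fra-1, was read by a dim probe. The probe (A_51_P308796, chr19:5350302-5350361, plus strand, mm7) read -3.95, -4.17, -4.11, -3.77 and -3.63 in control, -3.73, -3.98, -4.05, -3.63 and -3.93 in E1, and -3.56, -3.28, -3.62, -4.43 and -3.35 in ELF. Control and E1 overlapped almost entirely, with a difference of 0.06 (95% interval -0.35 to 0.47), and ELF was 0.28 above control (adjusted p = 0.391).

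Fosl2, known as Fra-2, differed by 0.20 in E1 (95% interval -0.05 to 0.44) and by 0.08 in ELF (95% interval -0.16 to 0.33) on the brighter probe (A_52_P484903, chr5:31189767-31189826, plus strand, mm7). On that probe readings ran from -0.83 to -0.55 in control, from -0.61 to -0.12 in E1 and from -0.76 to -0.34 in ELF. The second probe (A_51_P507242) varied far more within groups, from -2.15 to 0.49 in control, from -0.91 to 0.17 in E1 and from -2.16 to -0.19 in ELF. Its control SD was 1.01, against 0.12 on the brighter probe, and the probes correlated at r = 0.47 over 15 arrays. The probes differed in the sign of ELF minus control, which was -0.47 on the second (95% interval -1.43 to 0.48).

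**Figure D3:**
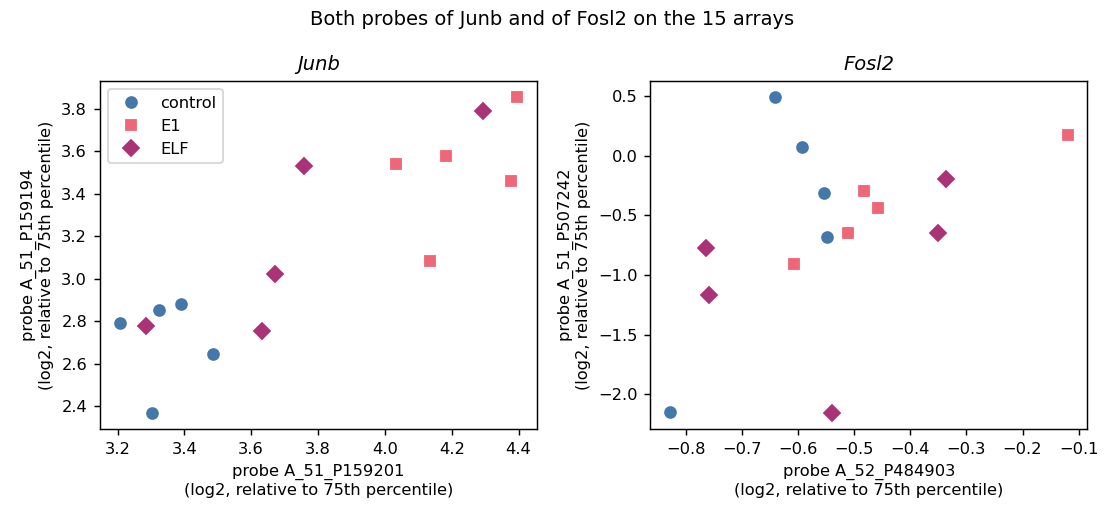
Readings of the brighter probe (horizontal) against the other probe (vertical) of Junb and of Fosl2 on the 15 arrays, in log2 units relative to each array's 75th percentile, with the group given by shape and colour. The Junb probes order the arrays alike (r = 0.86), while the Fosl2 probes do so less closely (r = 0.47), with single control and ELF arrays near -2.15 on the second probe.

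Jun, which encodes c-Jun, was the member that lay lower in E1. Its probe (A_51_P325914, chr4:94441779-94441838, minus strand, mm7), also in 10 spots, read 2.27, 2.32, 2.40, 2.41 and 2.21 in control, 2.19, 2.22, 1.96, 2.01 and 2.17 in E1, and 2.37, 2.41, 2.45, 2.53 and 2.06 in ELF. The highest E1 array was above the lowest control array, so the groups overlapped by 1 array on each side. E1 minus control was -0.22 (SE 0.09; unadjusted p = 0.037; adjusted p = 0.342) and ELF minus E1 was 0.26 (unadjusted p = 0.016; adjusted p = 0.425), neither called. Spot by spot the first ran from -0.32 to -0.12, negative in all 10 spots. Within slide 2 it was -0.09.

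Jund1, the gene for JunD, had overlapping readings in all 3 groups. Its probe (A_51_P357744, chr8:69154598-69154657, plus strand, mm7) read 4.04 to 4.24 in control, 4.10 to 4.38 in E1 and 4.14 to 4.51 in ELF. The differences from control were 0.10 in E1 (95% interval -0.10 to 0.30) and 0.15 in ELF (95% interval -0.06 to 0.35), intervals that reach 1.23-fold and 1.28-fold. The highest processed intensities were 51245 in E1 and 51639 in ELF, near the 51716 of the brighter Junb probe in E1. Each array held 236 to 609 saturated spots, at the upper limit of the scanner. Saturation of these probes was not tested, and the intervals take no account of it.

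**Figure D4:**
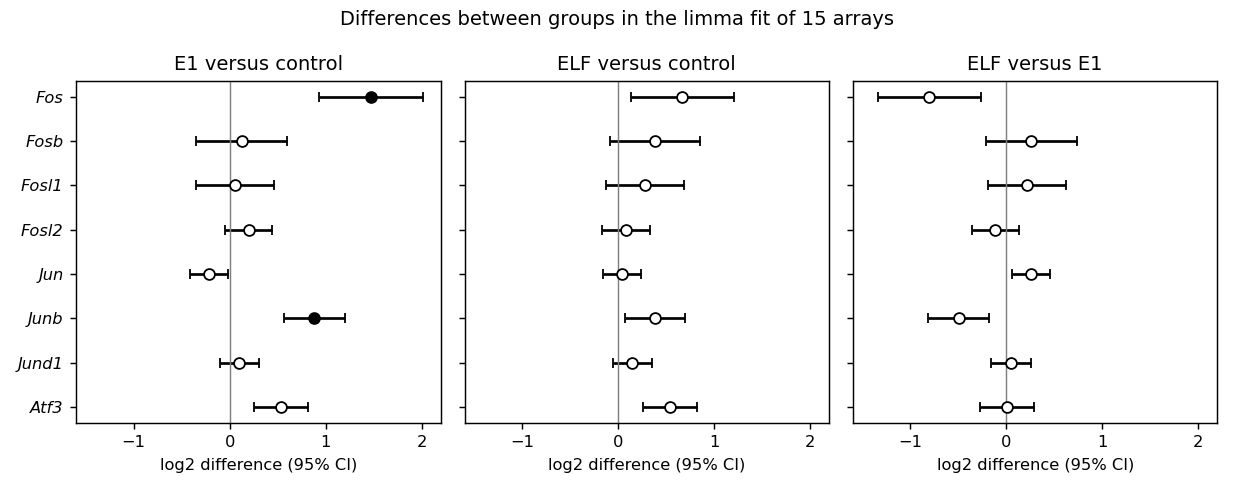
Log2 differences of the 8 AP-1 genes in the 3 comparisons with 95% intervals from the limma fit of 15 arrays; filled circles are called at an adjusted p of 0.05 over all genes. Fos and Junb in E1 against control are the filled ones, and their ELF against E1 intervals lie below 0 without being called.

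In ELF against control no member was called in limma, where 2.15% of all genes were, and 3 members (Fos, Junb and Atf3) had an unadjusted p under 0.05, against 23.0% of all genes. Only for Atf3 did the groups not overlap, a count of 1 of 8 against 2.53% of genes higher without overlap. All 8 differences were positive, with a median of 0.33 against 0.10 over all genes. Scaling each array by its median instead moved that median over all genes to 0.00, and turned Fosl2 (-0.022) and Jun (-0.066) below 0. Jun was also below 0 with quantile normalization (-0.0058), after normexp (-0.033) and in the deposited table (-0.053), where Fosl2 was -0.011. With slide as a fixed block Fosb (-0.36), Fosl1 (-0.54) and Atf3 (-0.15) were below 0, although no slide holds both ELF and control arrays. In ELF against E1 no member was called either, against 0.00766% of genes, and 3 (Fos, Junb and Jun) had an unadjusted p under 0.05, against 9.64%. E1 and ELF were compared with the same controls, so the first 2 comparisons are not independent.

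The ELF readings of most members divided by slide. For 6 of the 8 genes the 2 ELF arrays of slide 3 and the 3 of slide 4 did not overlap, beside 56.8% of all genes. Fos, Junb, Jun and Fosl2 were higher on slide 3, by 0.83, 0.50, 0.21 and 0.34 in the means, while Fosb and Fosl1 were lower there, at -1.01 and -0.63. Jund1 and Atf3 overlapped. Among all genes 9.99% were higher and 46.9% lower on slide 3, with a median of -0.26. Slide and animal cannot be told apart within ELF.

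Slide 3 also held 2 E1 arrays, and there the step from E1 to ELF was smaller for Fos and for the brighter Junb probe than over all arrays. Fos differed by -0.16 (E1 mean -0.90, ELF mean -1.06) and Junb by -0.23 on the brighter probe and 0.39 on the other. Jun differed by 0.40, with both ELF arrays above both E1 arrays. Fosb differed by -0.35, opposite in sign to its value over all arrays. The median over all genes was -0.18 on this slide.

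**Figure D5:**
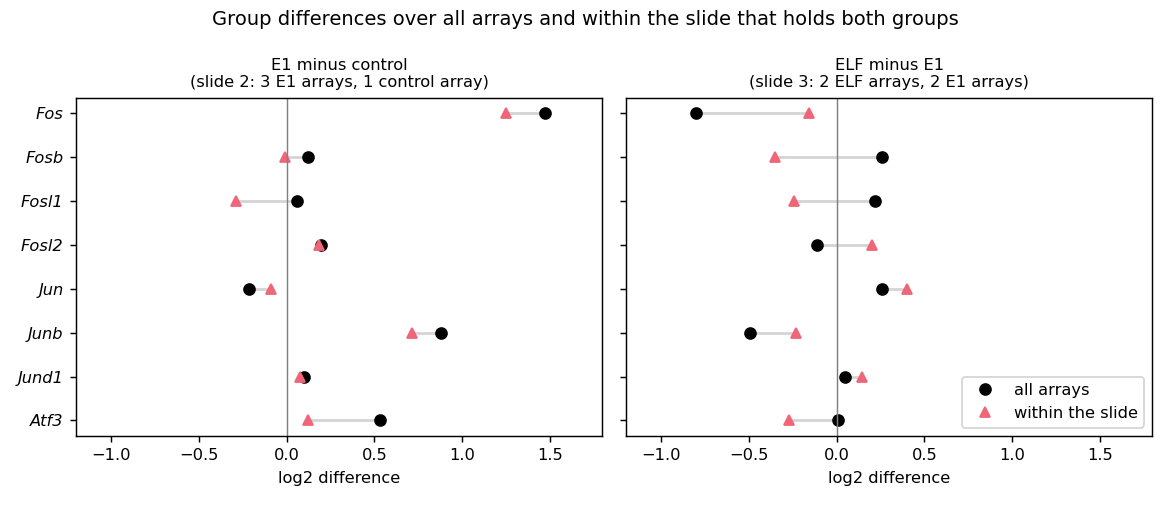
Log2 differences of the 8 AP-1 genes over all arrays (black circles) and within the slide that holds both groups (red triangles). E1 minus control is similar for Fos and Junb within slide 2, whereas ELF minus E1 is -0.16 for Fos within slide 3 against -0.80 over all arrays.

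Setting aside either part of ELF changed which members were called, a step added after the data were seen. The parts, 2 arrays of slide 3 and 3 of slide 4, follow the division described above for these same genes. The differences and p-values of these fits are therefore not independent of that division. With the slide 3 arrays alone, Fos was 1.17 (adjusted p = 0.0191) and Junb 0.68 (adjusted p = 0.0179) above control in limma, and Jun was 0.38 above E1 (adjusted p = 0.0301). Those fits called 13.1% of all genes against control and 14.6% against E1. With the slide 4 arrays alone, Fos was -1.14 (adjusted p = 0.0041) and Junb -0.69 (adjusted p = 0.0017) against E1, with Fosb 0.67 and Fosl1 0.47 also called. The same 3 arrays put Fosb 0.79 (adjusted p = 0.00056), Fosl1 0.53 (adjusted p = 0.0085) and Atf3 0.60 (adjusted p = 0.0077) above control. Here 41.0% of all genes were called against control and 25.8% against E1. Leaving out ELF 4 alone, the array with the fewest spots above background, called Fosb (0.59), Fosl1 (0.47) and Atf3 (0.58) against control, along with 19.8% of all genes.

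Fosb and Fosl1 varied with the probes of olfactory receptors. Over the 15 arrays Fosb correlated at r = 0.96, and Fosl1 at 0.91, with the median of 839 olfactory receptor (Olfr) genes, receptors of the nose, a list chosen after their likeness to Fosb was seen. That median ran from -4.60 to -3.82 on the slide 3 ELF arrays and from -3.01 to -2.53 on slide 4, and from -4.05 to -3.45 over control and E1. For the other members r was -0.18 for Fos, -0.11 for Junb, -0.25 for Jun, -0.39 for Fosl2, 0.37 for Jund1 and 0.51 for Atf3. The part of this shift in the Fosb and Fosl1 values was not tested. Processed intensities were 367 to 1174 for Fosb and 94.5 to 269 for Fosl1.

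The genes most like each member, by Pearson r over the 15 arrays (which share slides and groups), are given as a description. For Fos they were Junb (0.96), Egr2 (0.94), Nr4a1 (0.93), Arc (0.93) and Btg2 (0.92). For Junb they were Fos, Arc (0.92), Egr2 (0.92), Egr4 (0.91) and Nr4a1 (0.91). Egr2, Egr4 and Nr4a1 are immediate early transcription factors, and Arc encodes a synaptic protein whose messenger RNA is induced by activity. Once group means were removed, Junb was still second for Fos (0.85), after Atp6v1b2 (0.86), a subunit of the vacuolar proton pump, while Fos was not among the nearest 5 of Junb, led by 9130213B05Rik (now Parm1, 0.92) and Pla2g7 (0.89).

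For Fosb the nearest were the transcript CA495516 (0.99), Was (0.99), Olfr770 (0.98), Olfr799 (0.98) and Gimap7 (0.98). For Fosl1 they were Tbx10 (0.96), Krt34 (0.96), Olfr1168, Htr2b and Icos (0.95 each). Was, Gimap7 and Icos are known from blood cells, and Krt34 from hair. Fosl2 was nearest to Zfp82 (0.87), Impact (0.86), 2310039E09Rik (now Cavin4, 0.83), Thtpa and Kcnip4 (0.82 each). Jun was nearest to Kpna4 (0.93), Myo5b (0.93), 2810422O20Rik (now Mettl18, 0.92), Tbccd1 and Gcnt1 (0.91 each). Jund1 was nearest to Ralb and Pmvk (0.93 each), Golga2 and Ndufb5 (0.91 each) and A230051N06Rik (0.90), and Atf3 to Ms4a11 and Rbm38 (0.95 each), ENSMUST00000008172 (0.94), 4933407P14Rik (now Sppl2c) and Atp8b3 (0.93 each).

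Without group means the lists of the remaining members changed in part. Fosb was led by CA495516 and Olfr557 (0.99 each), Fosl1 by TC1507956 and LOC670190 (0.98 each), Fosl2 by Gpr45 (0.91) and A430089I19Rik (now Pramel39, 0.88), Jun by Tbccd1 (0.95) and Rbbp7 (0.91), Jund1 by Pmvk and Ralb (0.94 each) and Atf3 by Rpain (0.92) and Irak3 (0.91). Among the members themselves, Fosb and Fosl1 moved together (r = 0.89; 0.87 without group means). Fos and Fosb, which share a subfamily and a TGACG match, did not (r = -0.20; -0.64 without group means). Fos and Jun had r = -0.41, and 0.17 without group means.

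AP-1 partners and related bZIP factors were measured for 21 of 22 listed genes, and none was called in any comparison. Medians were 0.05 in E1 and 0.07 in ELF against control, beside 0.04 and 0.10 over all genes, and 14 and 15 of 21 differences were positive. With an unadjusted p under 0.05 there were 4, 7 and 4 of 21 genes in E1 against control, ELF against control and ELF against E1, beside 13.1%, 23.0% and 9.64% of all genes. The 2 smallest p-values in each comparison fell on the following genes. Atf4, a stress-response factor that pairs with AP-1 proteins, differed by 0.26 in E1 (0.74 ± 0.07 against 0.47 ± 0.04 in control, SD, n = 5 each; limma adjusted p = 0.105). Batf2 differed by 0.99 in E1 (-3.24 ± 0.51 against -4.22 ± 0.38; adjusted p = 0.113 in limma). In ELF, Cebpd differed by 0.46 from control (adjusted p = 0.065) and Atf2, a partner of c-Jun, by -0.31 (adjusted p = 0.0878). Against E1, Atf2 differed by -0.44 (adjusted p = 0.218) and Cebpb by 0.51 (adjusted p = 0.352).

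The kinases, transcription factors and ubiquitin ligases that regulate Fos and Jun were measured for 28 of 30 genes, and none was called. Medians were 0.03 in E1 and 0.02 in ELF against control, beside 0.04 and 0.10 over all genes. In the 3 comparisons 1, 3 and 2 of 28 genes had an unadjusted p under 0.05, beside 13.1%, 23.0% and 9.64% of all genes. Itch, a ubiquitin ligase of Jun proteins, differed by -0.33 in E1 (adjusted p = 0.328) and Rps6ka5, the kinase MSK1, by -0.24 (adjusted p = 0.386). Mapk3, the kinase ERK1, differed by 0.37 in ELF from control (2.32 ± 0.14 against 1.94 ± 0.13, SD, n = 5 each; limma adjusted p = 0.0612) and Rps6ka1, the kinase RSK1, by 0.46 (adjusted p = 0.144). Against E1, Mapk3 differed by 0.26 (adjusted p = 0.455) and Srf, which binds the CArG box, by 0.26 (adjusted p = 0.506).

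Genes described as AP-1 targets were measured for 31 of 31, and none was called. In both E1 and ELF against control 25 of 31 differences were positive, with a median of 0.16 in each, beside 0.04 and 0.10 over all genes. In ELF against E1 the median was 0.02, beside 0.05. Counts with an unadjusted p under 0.05 were 6, 8 and 6 of 31, beside 13.1%, 23.0% and 9.64% of all genes. Some other fits called genes of these 3 lists. The replicate block over 10 arrays called 6 of 31 targets in E1, beside 12.2% of all genes. Without the slide 3 ELF arrays 13 of 31 were called in ELF against control, beside 41.0% of all genes. Nptx2, a secreted pentraxin that gathers glutamate receptors at synapses, differed by 0.64 in E1 (-0.77 ± 0.25 against -1.41 ± 0.30, SD, n = 5 each; limma adjusted p = 0.0867) and by -0.52 in ELF against E1 (adjusted p = 0.347). Scg2, a precursor of neuropeptides in secretory granules, differed by 0.60 in E1 (2.10 ± 0.16 against 1.50 ± 0.32, SD, n = 5 each; adjusted p = 0.110 in limma) and by -0.58 in ELF against E1 (adjusted p = 0.306). In ELF against control, Plaur, the urokinase receptor, differed by 0.67 (adjusted p = 0.066) and Hmox1, a haem-degrading stress enzyme, by 0.26 (adjusted p = 0.102).

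Some markers of other cells also differed from control. Of 9 endothelial markers, 2 were called lower in E1 and 4 in ELF, beside 0.188% and 2.15% of all genes called in either direction. Intensities as ratios to the 75th percentile, not as log2 values, were summed over the markers of a list, so bright markers weigh most. For endothelium the sums spanned 8.40 to 15.5 over control, 5.05 to 7.54 over E1 and 4.97 to 6.45 over ELF arrays. None of 9 choroid plexus markers was called, with sums of 40.4 to 62.7, 32.1 to 54.3 and 2.75 to 35.0. Of 8 thalamus and habenula markers 1 was called higher in E1 and none in ELF. Their sums were 7.49 to 9.05 in control, 7.66 to 10.5 in E1 and 7.57 to 8.31 in ELF. Of 7 meningeal markers 1 was called lower in ELF. No astrocyte, microglia, oligodendrocyte or hippocampal neuron marker was called. Their part in the AP-1 values was not tested, and in tissue RNA more cells with a transcript and more transcript per cell cannot be told apart.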

How the data were processed

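Hippocampal RNA of 15 mice was hybridised to 1-colour Agilent arrays. The authors deposited scanner files with background-subtracted processed intensity per spot (Agilent Feature Extraction 9.5.3.1, per the file headers), and a table of log2 values whose normalization the sources used here do not give (deposited log2 medians 8.68 to 8.92 per array). The submitters' processing notes also name limma.

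From the processed intensity, log2 minus each array's 75th percentile (1441 to 2932) was taken. Control and outlier spots were left out and spots averaged per probe. Of 41174 probes, 38457 well above background on at least 5 arrays were kept, and the brightest probe stood for each gene. limma 3.58.1 (R 4.3.3) fitted 3 groups of 5 with Benjamini-Hochberg adjustment. It was also run on simulated data with independent noise and no slide effect, which cannot show how slides affect the calls. Promoters came from RefSeq tables. Array number limits the precision.

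Slides were read from the scanner barcodes. The replicate numbers of the titles are not stated to share a litter or day. Deviations of same-numbered E1 and control arrays correlated at r 0.14 to 0.30 in 5 of 5 pairs, and those of other numbers at -0.34 to 0.27. The block is given for these 2 groups, a choice that rests on the same data. Between ELF and control, r was -0.43 to 0.31 for the same number and -0.43 to 0.46 for other numbers. Named genes are all probes of the members, the 2 smallest p of each list and comparison where none was called, and the 5 nearest genes by r. The members and lists were chosen with earlier results of these data known.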

Additional observations from a re-analysis of the deposited data

How the results depend on the processing

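With E1 against control, Fos and Junb stayed positive in every fit. The members called were 2 in the chosen fit, 1 with the median as array shift (Fos) and 1 with the mean of a gene's probes (Fos), and 0 with slide as a fixed block, with slide as a random block and with the replicate block over 15 arrays; leaving out 1 array gave 0 to 3. Over all genes the same fits called 49, 288, 36, 3, 0 and 9, and 8 to 1119 leaving out 1 array. The 10 arrays of the pair alone called 2 members and 33 genes, and with the replicate block 3 members and 3196 genes. With ELF against control the count was 0, and 1 (Atf3) with the deposited table, with the filter on all 15 arrays and with each probe as a row; it was 2 without the slide 4 ELF arrays, 3 without the slide 3 ELF arrays and 0 to 3 leaving out 1 array. Those fits called 562, then 1587, 759 and 907 (of probes), then 3415 and 10709 over all genes, and 0 to 5164 leaving out 1 array. With ELF against E1 it was 0, 1 without slide 4 ELF arrays, 4 without slide 3 ELF arrays and 0 leaving out any 1 array; over all genes the counts were 2, 3802, 6726 and 0 to 11. The replicate block changed no member's call in the comparisons with ELF. Over 15 arrays that block includes the ELF arrays by their numbers. The cause of these changes was not tested.

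The 3 pathway lists had 0 calls in each comparison. In E1 against control, partners had 1 with the median shift and 1 with quantile normalization, which also called 1 target. Those fits called 288 and 446 of all genes. The replicate block over 10 arrays called 2 partners, 2 regulators and 6 targets, beside 12.2% of all genes. Leaving out 1 array called 0 to 1, 0 to 0 and 0 to 3, in fits that called 8 to 1119 of all genes. In ELF against control the median shift called 1 target, in a fit that called 1199 of all genes. Quantile normalization called 1 of each list, normexp 1 regulator and the deposited values 1 partner and 1 target. Over all genes, the 16 alternative fits of this comparison, apart from those leaving out 1 array, called 0 to 10709. Without the slide 4 ELF arrays there were 3, 2 and 1 (partners, regulators, targets), beside 13.1% of all genes. Without the slide 3 ELF arrays there were 5, 4 and 13, beside 41.0%. Leaving out 1 array gave 0 to 2, 0 to 2 and 0 to 4, in fits that called 0 to 5164 of all genes. In ELF against E1 slide as a fixed block called 4, 2 and 8 (5113 genes in all). The fit without slide 4 ELF arrays called 3, 2 and 5, beside 14.6% of all genes. That without slide 3 ELF arrays called 2, 2 and 6, beside 25.8%.

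Uncalled differences changed sign as follows, among them Atf3 (0.54), Fosb (0.38) and Fosl1 (0.28) in ELF against control with slide fixed. With the deposited table, Fosl1 in E1 was -0.0074, and in ELF against control Fosl2 was -0.011 and Jun -0.053; against E1, Jund1 was -0.0081 and Atf3 -0.040. The mean of probes gave Fosl2 -0.20 in ELF against control. The median shift gave Fosl2 -0.022 and Jun -0.066 in ELF against control, and Jund1 -0.0089 and Atf3 -0.051 against E1. Quantile normalization gave Fosl1 -0.054 in E1, Jun -0.0058 in ELF against control and Atf3 -0.079 against E1. After normexp they were Fosl1 -0.042, Jun -0.033 and Atf3 -0.038, with Fosb -0.054 in E1. With slide fixed, Fosb was -0.0080 and Fosl1 -0.29 in E1; Fosb -0.36, Fosl1 -0.54 and Atf3 -0.15 in ELF against control; and Fosb -0.35, Fosl1 -0.25, Fosl2 0.20 and Atf3 -0.27 against E1. With slide random, Fosl1 was -0.026 in E1, and Fosb -0.026, Fosl2 0.047 and Atf3 -0.090 in ELF against E1. Without the slide 3 ELF arrays, Fosl2 was -0.054 and Jun -0.045 against control. Without the slide 4 ELF arrays, Fosb was -0.22 and Fosl1 -0.10 against control, and Fosb -0.35, Fosl1 -0.16, Fosl2 0.092 and Atf3 -0.085 against E1. Leaving out 1 array, Atf3 in ELF against E1 ran from -0.048 to 0.088, Fosl1 in E1 from -0.0012 to 0.13, Jun in ELF against control from -0.0019 to 0.11 and Jund1 in ELF against E1 from -0.0059 to 0.088.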
